A study of Capra hircus with 6 samples.

Results

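The genes described here are those of nucleotide excision repair, chosen by name from a fixed list of 42 genes that covers damage recognition, the TFIIH complex, incision and the filling of the gap. A row under its own gene name was found for 36 of the 42 among the 27271 genes of the deposited tables, and 23 of these 36 had enough counts to be tested, out of 6574 tested genes. RNA-seq was done on goat intramuscular preadipocytes, primary precursor cells of fat taken from the longissimus dorsi muscle of 3-day-old Jianzhou goats. The NC groups (3 libraries, genotype WT in the labels) received a negative control siRNA, and the Si-LIPG groups (3 libraries, genotype LIPG Knock down) received an siRNA against LIPG, which encodes endothelial lipase. All 6 libraries share the culture medium and an adipogenic induction with oleic acid at 50 μmol/L, and were taken 48 h after it. The cells are a short-term primary culture, the silencing is transient, and the comparison asks what LIPG silencing changed at the RNA level.

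Nucleotide excision repair removes bulky lesions, such as those left by ultraviolet light, by cutting out a short stretch of the damaged strand and copying the other strand across the gap. Lesions are found either anywhere in the genome, by the XPC and DDB complexes, or where they stall RNA polymerase II, through the ERCC6 and ERCC8 proteins. TFIIH then opens the helix, a pair of nucleases cuts on either side of the lesion, and the replication polymerases with their clamp and ligase restore the strand. Several of these proteins also serve transcription initiation or DNA replication, so their RNA levels are not a readout of repair alone.

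Depth on genes was low in every library and differed between the groups. The files hold 36451898 to 52638817 reads per library, of which the share counted on a gene was 0.997 to 1.53% for NC and 1.80 to 2.88% for Si-LIPG. That left 524776 to 703680 counts on genes per NC library and 864882 to 1051230 per Si-LIPG library, and the TMM scaling factors (edgeR's correction for library composition) ran from 0.608 in NC 1 to 1.35 in Si-LIPG 3. Reads assigned to no feature were 93.0 to 93.7% for NC and 91.6 to 92.7% for Si-LIPG, and 0.909 to 1.22% of reads per library were not aligned. NC 1 stood lowest in counts on genes and in its scaling factor, so the values without it are given further on for the repair genes whose call ended or whose fold change moved by over 1.5 times. LIPG itself had 0, 2 and 0 counts in NC 1 to 3 and 0, 2 and 2 counts in Si-LIPG 1 to 3, all under the 3 counts that a count of 0 allows, so its silencing was not detectable in these counts. The targeted gene therefore gives no check of the sample titles that set the groups. Every higher or lower, rise or fall below is of the libraries labelled Si-LIPG relative to those labelled NC. Each would turn if the labels were exchanged. By RT-qPCR the study reports FABP3 lower and ELOVL6 and ATGL (PNPLA2) higher after silencing. Here their log2 fold changes in edgeR were -2.02, 2.01 and -1.28. The study names GPS1 as its most significantly upregulated gene, and here it stood at -2.39. Whether the labels were exchanged was not tested. The library kit marks the strand, and the strand setting of the counting is not given in the sources used here. ND6, a mitochondrial gene on the other strand from most, had an FPKM 54.2 to 99.3 times the median FPKM of 12 other protein-coding mitochondrial genes in NC libraries and 22.6 to 49.8 times in Si-LIPG libraries. Whether reads were counted on the strand of each gene was not tested, and it bears on what every count, level and fold change below measures, those of LIPG and the markers included. COL1A1, a mesenchymal collagen gene, had 2841 to 17392 counts per library and PDGFRA 24 to 181, whereas the preadipocyte marker DLK1 had 0 counts in all 6 libraries. Of the other cell types, summed adipocyte markers had 6.27 to 38.3 CPM (TMM-scaled counts relative to all counts on genes) in NC and 4.94 to 24.4 in Si-LIPG libraries, with LPL at 0 counts throughout. Summed myogenic markers had 350.3 to 455 CPM in NC and 365 to 456 in Si-LIPG libraries. Endothelial markers had 0 to 6.96 and 0 to 5.51 CPM, with CDH5 and KDR at 0, and leukocyte markers 16.8 to 29.6 and 13.4 to 20.7 CPM, with PTPRC at 0. In such bulk samples fewer cells of a type and less RNA per cell cannot be told apart, and the labels do not say that the 3 libraries of a group came from separate cultures, so that p-values measure the spread between these samples.

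Of the 23 tested repair genes, 4 fell in the Si-LIPG groups and 0 rose at an adjusted p under 0.05 (edgeR's quasi-likelihood test with Benjamini-Hochberg adjustment over all 6574 genes). The genes that fell were 1 from each step of the pathway: DDB2 in damage recognition, GTF2H3 in TFIIH, ERCC1 in incision and RFC4 in resynthesis. These 4 are 17.4% of the tested repair genes, and 5.54% of all tested genes fell, 0.958% rose and 6.5% did either. DESeq2, the tool named by the study, was run without edgeR's filter on low counts and fitted all 36 repair genes with a row. It called 5 of them lower (RFC5 beside these 4) and 0 higher. At the criterion below 8 of the 36 were lower, with POLE2 added, and 3 were higher, without RPA1. DESeq2 called 10.1% of 5348 genes with an adjusted p lower and 1.53% higher, and 7.17% and 4.24% of 14848 genes at the criterion. At the criterion these were 1064 genes lower and 629 higher. The study reports the opposite direction, with more genes upregulated than downregulated in its RNA-seq. At this criterion its number of upregulated genes equals the number lower here. Its number of downregulated genes is close to the number higher here. In these numbers its split is thus nearly the mirror image of the split here, and every fall or rise in this report is read with that limit. The reason for this difference in direction was not tested. In edgeR 11 of the 23 had an unadjusted edgeR p under 0.05. All 11 also passed the criterion the study used, an unadjusted p under 0.05 with a fold change over 1.5. There 7 were lower (ERCC8, CCNH and RFC5 beside the 4 above) and 4 were higher (ERCC6, GTF2H1, RPA1 and POLD1). The 7 lower genes are 30.4% of the tested repair genes beside 12.9% of all tested genes. Of the 4 higher genes, ERCC6, GTF2H1 and POLD1 had at most 6 counts in each NC library and passed the filter on low counts through their Si-LIPG libraries, so nothing is read from their number beside the 7.83% of all tested genes.

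The direction of these calls depended on the scale. Log2 fold changes, given for Si-LIPG relative to NC, had a median of 0.37 across the 23 genes beside 0.16 over all tested genes, with 13 values above 0 and 10 below. This median rests in part on genes that passed the filter through their Si-LIPG libraries: among the 10 repair genes with 10 or more counts in each library, 3 values were above 0 and 7 below, and the difference between their median and that of all genes so filtered was -1.15 in place of 0.21. Scaled to all reads in the files instead, where the median of all tested genes moved to 1.58, the repair genes had a median of 1.81 with 19 values above 0 and 4 below, those of ERCC1, DDB2, ERCC8 and POLE2. With library sizes alone the median of all tested genes was 0.71. Fold changes below are on the TMM scale unless the scale of all reads is named, and values relative to the median gene are lower by the 0.16.

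**Figure D1:**
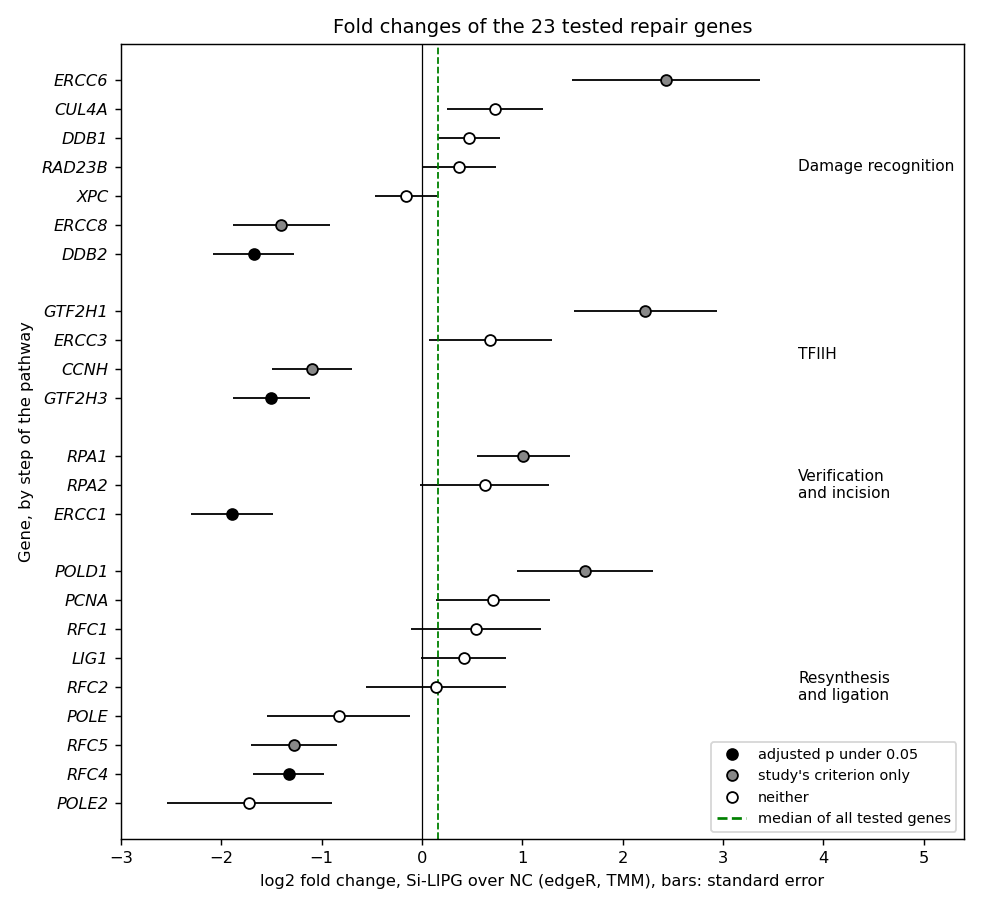
Log2 fold change of Si-LIPG over NC for the 23 tested repair genes by step (edgeR, TMM scale, bars are standard errors), with the median of all tested genes dashed. Each step holds 1 gene that fell at an adjusted p under 0.05 (black), and scaled to all reads 2 of these 4 (GTF2H3 and RFC4) lie above 0.

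Damage recognition had a row for all 10 genes listed, of which 7 were tested, with 1 that fell, 1 more lower and 1 higher at the study's criterion. DDB2, the subunit of the UV-damaged DNA-binding complex that contacts the lesion, had 716, 639 and 513 counts in NC 1 to 3 and 529, 448 and 513 in Si-LIPG 1 to 3. After TMM scaling these are 2245, 1112 and 781 CPM in NC and 577, 353 and 362 CPM in Si-LIPG libraries. Every Si-LIPG library lay below every NC library on that scale, with NC 1 far above NC 2 and NC 3. DDB2 fell by 1.68 on the log2 scale (SE 0.41, edgeR adjusted p = 0.0396), from a mean of 1379.5 ± 768 to 431 ± 127 CPM (SD, n = 3). As CPM of all reads it had 13.6, 15.0 and 11.1 in NC and 11.01, 12.0 and 14.1 in Si-LIPG libraries, and on that scale the groups overlapped, with a log2 fold change of -0.10.

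DDB1, the partner that ties DDB2 to the CUL4 ubiquitin ligase, passed neither threshold on the TMM scale. It had 45, 95 and 123 counts in NC and 186, 357 and 288 in Si-LIPG libraries. In CPM every Si-LIPG library lay above every NC library, but the log2 fold change was 0.47 (SE 0.31, edgeR adjusted p = 0.428). Scaled to all reads it was 1.89, with an edgeR adjusted p of 0.0473 there and 0.0473 to 0.87 over all alternatives. CUL4A, the scaffold of that ligase, had a log2 fold change of 0.73 (edgeR adjusted p = 0.426). XPC, the sensor of helix distortion, stood at -0.16 and 1.34 scaled to all reads, so its sign changed with the scale, and its stabilizing partner RAD23B at 0.37 and 1.89.

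Both genes of transcription-coupled recognition met the study's criterion alone, with fold changes of opposite sign, and the difference between them was not tested. ERCC6, the CSB translocase that binds stalled RNA polymerase II, had 0, 4 and 2 counts in NC and 24, 16 and 33 in Si-LIPG libraries. ERCC8, the CSA substrate receptor that ERCC6 recruits, had 74, 119 and 76 counts in NC and 121, 62 and 43 in Si-LIPG libraries. For ERCC6 the groups did not overlap, whereas for ERCC8 Si-LIPG 1 (132 CPM) lay above NC 3 (116 CPM). The log2 fold change was 2.43 for ERCC6 (SE 0.94, edgeR adjusted p = 0.142), which rests on 6 counts in the NC libraries together, and -1.40 for ERCC8 (SE 0.48, edgeR adjusted p = 0.0944). Scaled to all reads the values were 3.71 for ERCC6 (edgeR adjusted p = 0.0476) and -0.12 for ERCC8, and the adjusted p over all alternatives ran from 0.0476 to 0.488 for ERCC6 and from 0.000108 to 0.85 for ERCC8 (edgeR, limma or DESeq2).

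TFIIH had a row for 9 of its 10 genes (GTF2H2 had none under that name), and 4 were tested, with 1 that fell, 1 more lower and 1 higher at the study's criterion. GTF2H3, a core subunit that pairs with GTF2H2, had 172, 159 and 140 counts in NC and 144, 138 and 135 in Si-LIPG libraries. In CPM it went from 539, 277 and 213 to 157, 109 and 95.3, with no overlap. GTF2H3 fell by 1.503 on the log2 scale (SE 0.38, edgeR adjusted p = 0.04), and scaled to all reads its log2 fold change was 0.050, the other side of 0. GTF2H1, the core subunit that XPC contacts, had 2, 3 and 4 counts in NC and 19, 36 and 48 in Si-LIPG libraries. All Si-LIPG libraries (20.7 to 33.9 CPM) lay above all NC libraries (5.22 to 6.27 CPM). Its log2 fold change was 2.22 (SE 0.71, edgeR adjusted p = 0.0762) and 3.73 scaled to all reads (edgeR adjusted p = 0.0462).

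CCNH, the cyclin of the TFIIH kinase, had 42, 39 and 58 counts in NC and 37, 76 and 46 in Si-LIPG libraries. Its CPM values of 67.9 to 132 in NC stayed above the 32.5 to 59.8 in Si-LIPG libraries. The log2 fold change was -1.10 (SE 0.40, edgeR adjusted p = 0.12), and 0.45 scaled to all reads. ERCC3, the XPB translocase of the complex, had 0.68 (SE 0.62, edgeR adjusted p = 0.598) and overlapped between the groups. The other helicase gene ERCC2 (0 to 10 counts per library), GTF2H4 (0 to 17), GTF2H5 (0 to 14), and the kinase genes CDK7 (0 to 30) and MNAT1 (0 to 11) had too few counts to be tested.

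Verification and incision had a row for 5 of 7 genes (RPA3 and ERCC5 had none under that name), and 3 were tested. ERCC1, which together with ERCC4 forms a nuclease that cuts beside the lesion, had 541, 474 and 440 counts in NC and 381, 299 and 295 in Si-LIPG libraries. In CPM these are 1696, 825 and 670.1 against 415, 235 and 208. ERCC1 fell by 1.89 on the log2 scale (SE 0.41, edgeR adjusted p = 0.0396), from 1064 ± 553 to 286 ± 113 CPM (SD, n = 3). By p it was number 39 of all 6574 tested genes, ahead of the other repair genes. As CPM of all reads it had 10.3, 11.1 and 9.55 in NC and 7.93, 8.00 and 8.09 in Si-LIPG libraries. ERCC1 was thus the single tested repair gene with every Si-LIPG library below every NC library on both scales, although scaled to all reads its log2 fold change was -0.37 with an edgeR adjusted p of 0.291. Over all alternatives its edgeR, limma or DESeq2 adjusted p ran from 5.83e-11 to 0.291.

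RPA1, the large subunit of the protein that coats the undamaged strand, had 4, 40 and 51 counts in NC and 118, 150 and 129 in Si-LIPG libraries. After scaling, NC 1 stood apart at 12.5 CPM, below the 69.6 and 77.7 CPM of the other NC libraries and the 91.1 to 129 CPM of the Si-LIPG libraries, and the groups did not overlap. RPA1 had a log2 fold change of 1.01 (SE 0.46, edgeR adjusted p = 0.231) and RPA2, its middle subunit, 0.63 (SE 0.64, edgeR adjusted p = 0.653). XPA, the scaffold that verifies the lesion (2 to 10 counts), and ERCC4, the nuclease partner of ERCC1 (2 to 16 counts), were not tested, so whether the partners moved together could not be measured at this depth.

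**Figure D2:**
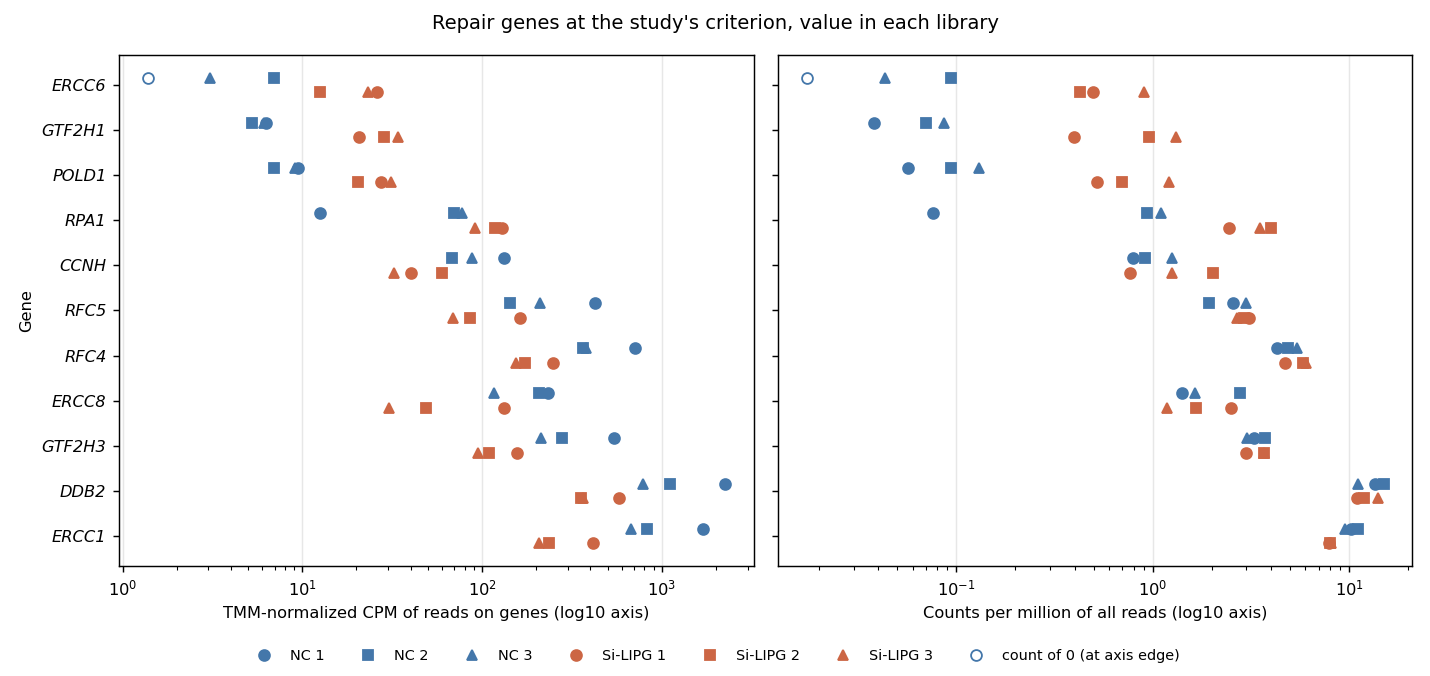
Values of the 11 repair genes at the study's criterion in each library (NC blue, Si-LIPG red, shapes mark replicates), as TMM-scaled CPM (left) and CPM of all reads (right), both on log axes, with a count of 0 drawn open at the edge. The 4 genes that fell (DDB2, GTF2H3, ERCC1 and RFC4) have all 3 Si-LIPG libraries below the NC libraries on the left, and on the right this holds for ERCC1 alone.

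Resynthesis and ligation had a row for 12 of 15 genes (POLD3, POLD4 and POLE3 had none under those names), and 9 were tested. RFC4, a subunit of the clamp loader, had 225, 208 and 250 counts in NC and 226, 219 and 220 in Si-LIPG libraries. Its counts were thus almost level across the 6 libraries, and the difference is in the scaled values, from 705, 362 and 381 CPM to 246, 172 and 155 CPM. RFC4 fell by 1.33 on the log2 scale (SE 0.35, edgeR adjusted p = 0.0412), and scaled to all reads it stood at 0.19, above 0. RFC5, another small subunit of the loader, had 135, 82 and 137 counts in NC and 149, 109 and 98 in Si-LIPG libraries. Si-LIPG 1 (162 CPM) lay above NC 2 (143 CPM), so the groups overlapped. RFC5 had a log2 fold change of -1.28 (SE 0.43, edgeR adjusted p = 0.0901), and 0.22 scaled to all reads. The large subunit RFC1 stood at 0.54 and RFC2 at 0.14, with edgeR adjusted p of 0.705 and 0.938. Scaled to all reads, where the median of all tested genes was 1.58, RFC1 stood at 2.16 and RFC2 at 1.70.

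POLD1, the catalytic subunit of DNA polymerase delta, had 3, 4 and 6 counts in NC and 25, 26 and 44 in Si-LIPG libraries. No overlap was seen, with 6.96 to 9.41 CPM in NC and 20.5 to 31.1 CPM in Si-LIPG libraries. Its log2 fold change was 1.62 (SE 0.68, edgeR adjusted p = 0.178) and 3.07 scaled to all reads (edgeR adjusted p = 0.0462). The catalytic subunit of polymerase epsilon, POLE, had -0.83 (SE 0.71, edgeR adjusted p = 0.574) and 0.48 scaled to all reads, and its partner POLE2 -1.72 (SE 0.82, edgeR adjusted p = 0.249) and -0.04. Both overlapped between the groups, with 8 to 22 and 5 to 25 counts per library. PCNA, the sliding clamp, stood at 0.71 (SE 0.57, edgeR adjusted p = 0.542) and LIG1, the ligase that seals the last nick, at 0.42 (SE 0.42, edgeR adjusted p = 0.649). The remaining genes were not tested: RFC3 (0 to 14 counts), POLD2 (0 to 17) and POLE4 (0 to 26), as well as CETN2 (0 to 8), CUL4B (2 to 13) and RBX1 (2 to 29) of damage recognition. Together the 13 untested genes had 20 to 54 counts each over all 6 libraries, and 9 of them were at 0 in at least 1 library.

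In all, Si-LIPG libraries lay wholly below NC libraries in CPM for 5 tested repair genes (CCNH, ERCC1, GTF2H3, RFC4 and DDB2) and wholly above for 5 (ERCC6, GTF2H1, POLD1, DDB1 and RPA1), beside 13.4% and 15.2% of all tested genes. In CPM of all reads 1 was wholly below and 12 wholly above, beside 1.17% and 51.9% of all tested genes. Nothing is read from the counts above, which include genes, such as ERCC6, GTF2H1 and POLD1, that passed the filter through their Si-LIPG libraries. The share of counts on genes held by the 36 repair genes was 0.303 to 0.405% per NC library and 0.267 to 0.283% per Si-LIPG library. Few genes carry this sum, with DDB2 and ERCC1 at 716 and 541 of its 2125 counts in NC 1. In Si-LIPG 3 they had 513 and 295 of 2804 counts.

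**Figure D3:**
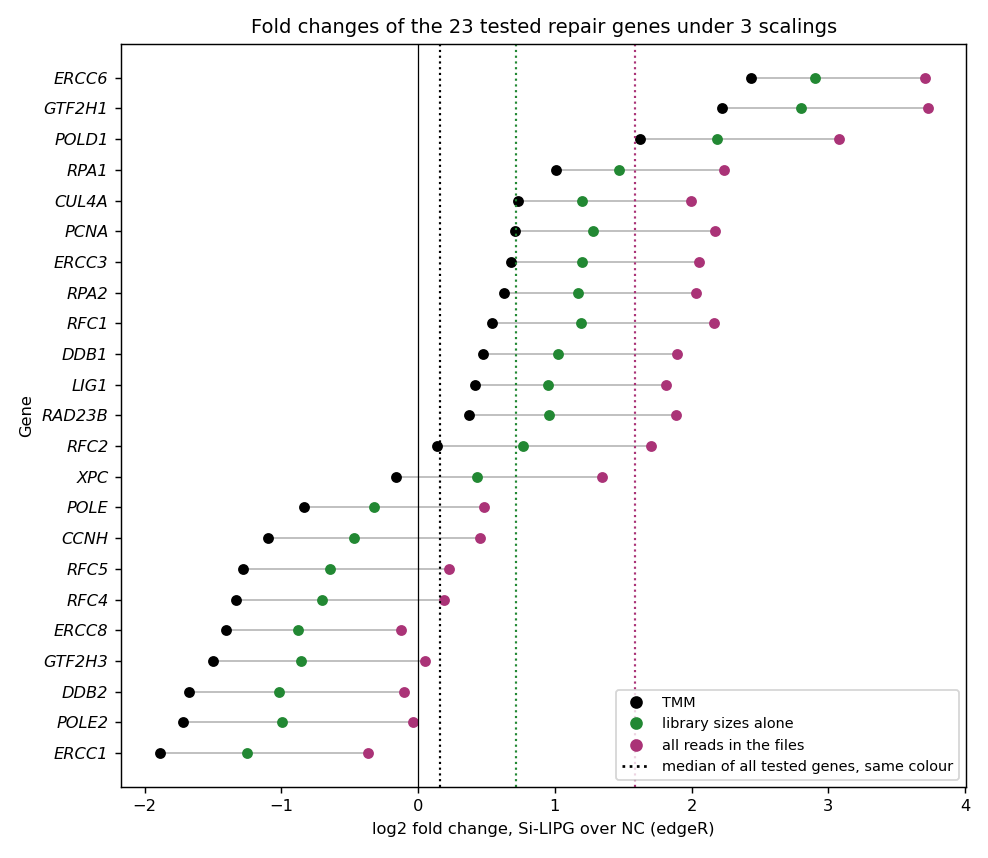
Log2 fold change of the tested repair genes under 3 scalings of the same counts (TMM, library sizes alone, all reads in the files), with the median of all tested genes for each. The values shift upward together, from a median of 0.37 under TMM to 1.81 scaled to all reads, where GTF2H3, RFC4, RFC5, CCNH, XPC and POLE are above 0.

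The calls of the 4 genes that fell were kept without NC 3 and without Si-LIPG 1, and were lost without any of the other 4 libraries. Without NC 1 the log2 fold changes were -1.40 for ERCC1, -1.15 for DDB2, -1.05 for GTF2H3 and -0.98 for RFC4, with edgeR adjusted p of 0.0772, 0.0846, 0.104 and 0.105. The same 4 also lost the call without NC 2 (edgeR adjusted p of 0.059 to 0.0601), Si-LIPG 2 (0.241 to 0.251) and Si-LIPG 3 (0.253 to 0.267). Their fold changes stayed near those from all libraries there, at -2.03, -1.80, -1.62 and -1.49 for ERCC1, DDB2, GTF2H3 and RFC4 without NC 2, -1.72, -1.51, -1.39 and -1.22 without Si-LIPG 2, and -1.65, -1.51, -1.31 and -1.15 without Si-LIPG 3. Without each of these 4 libraries 0 of all tested genes passed the adjusted threshold in edgeR (871 to 1611 with an unadjusted p under 0.05), so the loss was not particular to the repair genes. Over all alternatives the adjusted p ran from 1.9e-09 to 0.772 for DDB2, from 1.02e-05 to 0.916 for GTF2H3 and from 9.51e-06 to 0.656 for RFC4.

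The 7 genes at the study's criterion alone also changed with single libraries. RPA1 lost the criterion without NC 1 (log2 fold change 0.59, edgeR adjusted p = 0.386), NC 2, Si-LIPG 1 or Si-LIPG 2, with DESeq2 and with the size factors of DESeq2 in edgeR. RFC5 lost it without NC 1 (-0.76) or Si-LIPG 3 (-0.99), and fell at the adjusted threshold with DESeq2 (-1.27, adjusted p = 0.0485) and without Si-LIPG 1 (-1.74, edgeR adjusted p = 0.0185). ERCC8 likewise stood at -2.25 without Si-LIPG 1 (edgeR adjusted p = 0.00698) and at -0.99 without Si-LIPG 3, where it lost the criterion. CCNH and GTF2H1 lost it without Si-LIPG 3. ERCC6 lost it without NC 3, Si-LIPG 1 or Si-LIPG 3, and POLD1 without NC 2 or any 1 of the Si-LIPG libraries.

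Among the tested genes past neither threshold, leaving out NC 1 moved POLE2 from -1.72 to -0.50, where NC 1 had 25 counts and NC 2 and NC 3 had 5 and 13. POLE2 met the criterion without NC 2, NC 3 or Si-LIPG 1. Without NC 1 the values also moved for CUL4A from 0.73 to 0.32, ERCC3 from 0.68 to 0.30, LIG1 from 0.42 to 0.24, RFC1 from 0.54 to 1.03 and RFC2 from 0.14 to 0.54. ERCC3 stood at 1.60 without NC 3, where it met the criterion, and at 0.33 without Si-LIPG 3. Leaving out Si-LIPG 2 gave 0.34 for PCNA, 0.35 for RPA2, 0.30 for DDB1, 0.20 for LIG1 and -0.46 for POLE. POLE ran from -0.34 without NC 2 to -1.38 without Si-LIPG 1, and RFC1 was 0.30 without NC 2. Over the 6 libraries left out in turn XPC ran from -0.27 to -0.08 and RFC2 from -0.15 to 0.54.

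The direction of the calls differed with the level of the genes. By median FPKM over the 6 libraries, a value per gene length, the 7 lower repair genes were the 7 highest of all: DDB2 at 542, RFC4 at 232, GTF2H3 at 198, RFC5 at 151, ERCC1 at 90.4, CCNH at 69.1 and ERCC8 at 68.9. XPC and RPA1 came next at 52.2 and 51.6. Among the higher genes ERCC6 stood at 2.57 FPKM, and GTF2H1 and POLD1 were in the same lowest quartile of tested genes (0.479 to 7.44 FPKM). Of the 1644 tested genes in the highest quartile (38.0 FPKM and more) 30.6% were lower and 6.27% higher at the study's criterion, and of its 9 repair genes 7 were lower and 1 higher. In the lowest quartile 3.53% of 1643 genes were lower and 10.3% higher. Of its 6 repair genes 0 were lower and 3 higher (ERCC6, GTF2H1 and POLD1), which passed the filter through their Si-LIPG libraries. Since the same libraries give the level and the change, this is a description, and what part the level or the scaling has in the calls was not tested.

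**Figure D4:**
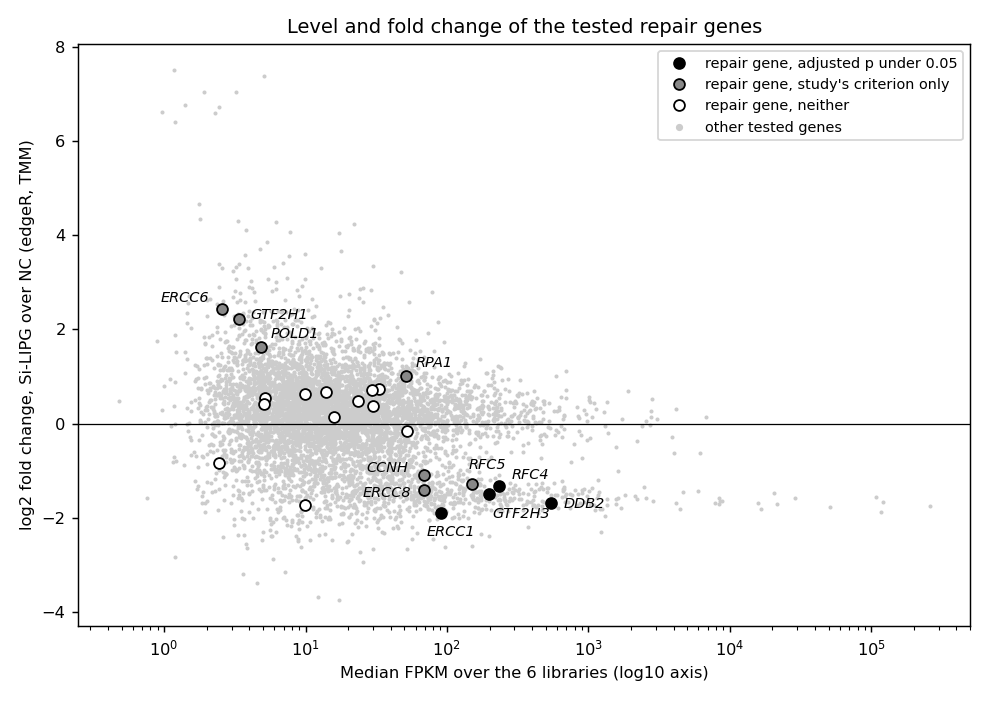
Median FPKM over the 6 libraries (log axis) against the log2 fold change of Si-LIPG over NC (edgeR, TMM scale) for all tested genes (grey) and the 23 tested repair genes. The 7 lower repair genes lie at 68.9 FPKM and more, 3 of the 4 higher ones at under 7.44 FPKM, and scaled to all reads only ERCC1, DDB2 and ERCC8 of the 7 lie below 0.

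The lower repair genes also lay close to other genes. In RefSeq (ARS1.2 assembly, placed genes found once by name) another gene overlapped or lay within 1 kb of 6 of the 7 lower repair genes, 3 of the 4 higher and 7 of the 11 other tested ones. The share was 50.4% over 5093 tested genes, 82.5% of the 252 of them that fell at an adjusted p under 0.05 and 48.7% of the rest. ERCC1 overlapped CD3EAP, RFC4 overlapped EIF4A2 and RFC5 overlapped WSB2, while DDB2 lay within 1 kb of ACP2, GTF2H3 of EIF2B1 and ERCC8 of NDUFAF2, and CCNH had no such neighbour. EIF4A2, which encodes a translation initiation helicase, had 14, 21 and 59 counts in NC and 81, 198 and 191 in Si-LIPG libraries. Its log2 fold change was 1.13 (edgeR adjusted p = 0.114), unlike RFC4. Other tested neighbours were WSB2 (0.21), TMEM43 of XPC (0.90), HPS5 of GTF2H1 (1.29), WDR19 of RFC1 (-0.16) and DNAAF2 of POLE2 (-1.29). HPS5 and DNAAF2 had the sign of their repair gene and the others did not. None passed the adjusted threshold (edgeR adjusted p of 0.0966 to 0.937).

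Genes outside the list, of the same pathway and of processes that share its proteins, were set beside the 5.54% of all tested genes that fell. Of 21 further nucleotide excision repair genes, 17 had a row and 14 were tested, with 0 called at an adjusted p under 0.05 by edgeR and by DESeq2, and 1 with an unadjusted edgeR p under 0.05. That gene, named after its value was seen, was PRPF19, a ubiquitin ligase of the splicing machinery. It was higher at the study's criterion (log2 fold change 2.07, edgeR adjusted p = 0.0909). PRPF19 had 2, 11 and 2 counts in NC and 21, 48 and 87 in Si-LIPG libraries. Like ERCC6, it passed the filter on low counts through its Si-LIPG libraries, so nothing is read from its direction. The median of the 14 was -0.10 beside 0.16 over all tested genes, and scaled to all reads all 14 were above 0. Among 12 RNA polymerase II subunit genes 5 were tested, and 1 of the 5 fell. This was POLR2B, the second-largest subunit, which fell by 1.36 on the log2 scale (SE 0.38, edgeR adjusted p = 0.0478). It had 447, 324 and 380 counts in NC and 354, 409 and 398 in Si-LIPG libraries, and scaled to all reads all 5 were above 0.

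Among 16 genes of S phase outside the list above, 12 were tested and 1 of the 12 fell. MCM7, a subunit of the replicative helicase, fell by 1.26 on the log2 scale (SE 0.36, edgeR adjusted p = 0.0492). MCM7 had 614, 538 and 746 counts in NC and 661, 620 and 654 in Si-LIPG libraries, level like those of RFC4. At the study's criterion 1 of the 12 was higher, RRM1, named after its value was seen (log2 fold change 1.09, edgeR adjusted p = 0.0971). RRM1 had 10, 38 and 56 counts in NC and 133, 167 and 177 in Si-LIPG libraries. The median of the 12 was 0.30, and scaled to all reads all 12 were above 0.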

How the data were processed

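RNA-seq of 3 NC and 3 Si-LIPG libraries was analysed, with groups and replicate numbers from the sample titles. The authors deposited counts per library, as whole reads on each of 27271 genes, and FPKM values of the same genes, scaled by the authors to length and depth, in 1 table that gives the gene names. The submitters' processing notes name fastp, HISAT2, SAMtools and HTSeq, and versions, genome build and strand setting are not given in the sources used here. The 5 rows that name no gene (97.1 to 99.0% of reads) entered neither library sizes nor tests. The repair genes and all gene lists were chosen with earlier results of these data known.

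Counts were filtered with filterByExpr (6574 genes kept), scaled by TMM and tested with edgeR 4.0.16's quasi-likelihood test in R 4.3.3, two-sided, without covariates, with Benjamini-Hochberg adjustment over all tested genes. This filter keeps a low gene more readily when 1 group is high. The standard error is the log2 fold change divided by the root of the F value. The common biological coefficient of variation was 40.5%. The study's methods name DESeq2, which was run as an alternative. At 3 against 3 libraries an exact permutation test of 1 gene cannot go below p = 0.1, so none is given. Repair genes at either threshold were named with each library's values, other tested ones with fold changes and untested ones with their range of counts. Of the other lists at most 3 genes past the adjusted threshold were named. Exceptions were PRPF19 and RRM1, named at the study's criterion, and marker genes given with their counts. Alternatives were other scalings, DESeq2 1.42.0, other filters, a replicate block, limma 3.58.1 on log2(FPKM + 1) and log2(FPKM + 0.1), and leaving out each library. The calling of changed genes was tried on simulated counts, which does not test how reads were counted. Figures were drawn with matplotlib 3.10.9, and no 2 libraries of the same group agreed within sampling noise.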

Additional observations from a re-analysis of the deposited data

How the results depend on the processing

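With the groups as labelled, 4 of the 23 tested repair genes fell and 0 rose at the adjusted threshold, and 7 were lower and 4 higher at the study's criterion, beside 364, 63, 846 and 515 of all tested genes. With library sizes alone 0 repair genes fell, 4 were lower and 7 higher at the criterion, and of all genes 7 fell, 413 were lower and 1535 higher. Scaled to all reads 4 of the 23 repair genes rose (DDB1, ERCC6, GTF2H1 and POLD1) and 0 fell, and 14 were higher and 0 lower at the criterion. ERCC6, GTF2H1 and POLD1 passed the filter on low counts through their Si-LIPG libraries. Nothing is therefore read from the numbers of repair genes that rose or were higher, here or with the other scalings. Of all 6574 tested genes 750 rose, 0 fell, 3030 were higher and 2 lower on that scale. There the signs of GTF2H3 (0.050), CCNH (0.45), RFC4 (0.19), RFC5 (0.22), POLE (0.48) and XPC (1.34) turned. The share of genes at the criterion that were higher was 37.8% under TMM, 78.8% with library sizes alone and 99.9% scaled to all reads. The fold change of XPC was also above 0 with library sizes alone (0.43), in genes with 10 or more counts per library (0.12) and in limma (0.40 and 0.41). Without a filter 143 genes rose and 995 were higher, and ERCC8 also fell (edgeR adjusted p = 0.0286). Requiring 10 or more counts per library, which left 10 repair genes, 191 genes rose and 1 repair gene (DDB1) was higher. The median of the repair genes minus that of all tested genes turned there from 0.21 to -1.15. ERCC8 and RFC5 also fell (edgeR adjusted p = 0.0275 and 0.0421). In limma on log2(FPKM + 1) 0 repair genes fell, 7 were higher and 2 lower, and of all genes 0 rose, 0 fell, 1476 were higher and 285 lower (1761 with an unadjusted p under 0.05). On log2(FPKM + 0.1) 0 repair genes fell, 6 were higher and 2 lower. Of all genes 9 rose, 0 fell, 1147 were higher and 271 lower there.

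Leaving out each library, 0 to 6 repair genes fell, 4 to 8 were lower and 1 to 4 higher, and of all genes 0 to 575 fell, 0 to 88 rose, 632 to 952 were lower and 234 to 761 higher. The median difference was 0.05 to 0.31, and RFC2 ran from -0.15 without NC 3 to 0.54 without NC 1. Same-numbered libraries, each taken relative to its group mean, had correlations of 0.19, 0.058 and 0.096 for replicates 1, 2 and 3. NC 1 had -0.11 and -0.13 with Si-LIPG 2 and 3, and Si-LIPG 1 had -0.11 and -0.14 with NC 2 and 3. NC 2 with Si-LIPG 3 and NC 3 with Si-LIPG 2 had 0.083 and 0.087. Replicate 1 thus stood apart in both groups, and whether the replicate numbers mark a batch was not tested. With the replicate block 267 genes rose and 658 fell, and ERCC8 and RFC5 passed the adjusted threshold (0.000108 and 0.000464 in edgeR). The cause of these changes was not tested. Low counts limit the untested genes, LIPG, and ERCC6, GTF2H1 and POLD1. In each library 91.6 to 93.7% of reads were assigned to no feature and 0.909 to 1.22% were not aligned. Whether depth on genes or the strand of counting made these counts low was not tested.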
